A study of Mus musculus with 6 samples.

Results

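Genes that move calcium within the cell or carry its signal to the transcription factor NFATc1 were examined in mouse osteoclasts (OCs) with and without DCIR, a C-type lectin receptor that carries an inhibitory motif in its cytoplasmic tail and is encoded by Clec4a2. They were taken from the gene table by symbol, 10 in all: the IP3 receptors Itpr1 and Itpr2, the store-operated entry genes Stim1 and Orai1, the calcineurin subunits Ppp3ca, Ppp3cb and Ppp3r1, the calcineurin inhibitor Rcan1, and the pumps Atp2b1 and Atp2a3. Each was found among the 21492 genes listed and among the 14047 genes tested. The RNA came from 3 libraries of WT OCs, numbered 3, 82 and 94, and 3 libraries of Dcir-/- OCs, numbered 21, 22 and 83, and the comparison asks how the transcripts of OCs differ when DCIR is absent. Both groups were C57BL/6J mice 8 to 12 weeks of age, the Dcir-/- line having been crossed back to that strain for 12 generations. Bone marrow macrophages (BMMs) of both genotypes were grown in 20 ng/ml of M-CSF, a growth and survival factor, and turned into OCs by adding 100 ng/ml of RANKL. The study's methods give 4 days with RANKL, whereas the sample labels give day 4 of culture and 2 days of RANKL. The WT mice came from a supplier and shared a rack with the Dcir-/- mice before use, so genotype and origin cannot be told apart. The sources do not say whether the numbered libraries were separate mice or cultures, and the p-values therefore rest on a spread between libraries that may be only technical.

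OCs are multinucleated cells that resorb bone. In their precursors, RANKL together with receptors that signal through immunoreceptor tyrosine-based activation motifs (ITAMs) activates phospholipase C gamma, and the IP3 it makes opens IP3 receptors in the endoplasmic reticulum. The calcium released, and the entry through ORAI channels that STIM sensors trigger once the store is depleted, activates calmodulin and the phosphatase calcineurin, which dephosphorylates NFATc1 and lets it enter the nucleus, while pumps return calcium to the store or out of the cell. In mouse BMMs, loss of the type 2 IP3 receptor abolishes the calcium oscillations that follow RANKL. NFATc1 is the master transcription factor of OC differentiation, and transcript levels say nothing of calcium concentration or of calcineurin activity.

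Values are in CPM, the deposited adjusted counts of a gene scaled by the mean total of the libraries. Clec4a2 was at 0.788, 1.15 and 0.496 CPM in Dcir-/- libraries 21, 22 and 83, against 275, 239 and 289 CPM for WT libraries 3, 82 and 94, as the labels give the genotypes. The adjusted totals lay between 33035020.2 and 34068308.6 by construction, so the depth of single libraries is unknown. OC markers such as Ctsk, Acp5 and Mmp9 were high in all 6 libraries, their list of 10 genes summing to 17274 to 22724 CPM in Dcir-/- OCs and 16906 to 19224 CPM in WT OCs. The mean of each of the 10 was higher in Dcir-/- OCs, the median log2 fold change being 0.13. Of these markers 5 did not overlap between genotypes, against 19.8% of all tested genes. Relative to the mean of the 6 libraries, on log2(CPM + 1), the 10 averaged 0.33, -0.04 and 0.02 in Dcir-/- libraries 21, 22 and 83. They averaged -0.14, -0.11 and -0.06 in WT libraries 3, 82 and 94. Limma called 0 of the 10 at an adjusted p under 0.05, against 0.441% of all tested genes, and put 4 under an unadjusted p of 0.05, against 12.5%. Those 4 had log2 fold changes of 0.50 for Calcr, 0.41 for Itgb3, 0.32 for Oscar and 0.25 for Dcstamp. Markers of other blood cells were also detected: the 8 macrophage markers summed to 3776 to 4072 and 3858 to 5113 CPM, the 5 monocyte markers to 36.9 to 52.2 and 60.4 to 95.8 CPM, the 10 neutrophil markers to 342 to 450 and 625 to 768 CPM, and the 6 platelet and megakaryocyte markers to 20.6 to 27.9 and 44.7 to 76.4 CPM in Dcir-/- and WT OCs, respectively. At an adjusted p under 0.05 limma called 4 of 10 neutrophil, 1 of 5 monocyte and 1 of 4 tested platelet and megakaryocyte markers lower in Dcir-/- OCs, and 0 of 8 macrophage markers (4 lower at an unadjusted p under 0.05). Over all tested genes these thresholds were passed by 0.441% and 12.5%, in either direction. Of the T cell markers, Cd3d was at 0.118 CPM or less in every library, whereas Trac was at 7.05 to 7.16 CPM in Dcir-/- OCs and 8.04 to 8.37 CPM in WT OCs, without overlap. The stromal markers summed to 0.168 to 2.86 CPM, and erythroid markers were not analysed here. In bulk RNA, fewer cells of a type and less RNA per cell cannot be told apart.

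Rcan1, the gene that stood highest in Dcir-/- relative to WT OCs among the 10, has 2 windows of 250 bases upstream of annotated transcript starts in the RefSeq promoter table, and both are shown because one of them lies before the shorter transcript that calcineurin and NFAT are known to induce. The first window is at chr16:92400079-92400328 and the second, before the longer transcript, at chr16:92466170-92466419 (GRCm38.p6, minus strand, 5′ to 3′). Capitals mark matches on either strand to GGAAA, the core that NFAT binds (TTTCC on the opposite strand), and to TGANTCA, the AP-1 site.
Rcan1 shorter transcript: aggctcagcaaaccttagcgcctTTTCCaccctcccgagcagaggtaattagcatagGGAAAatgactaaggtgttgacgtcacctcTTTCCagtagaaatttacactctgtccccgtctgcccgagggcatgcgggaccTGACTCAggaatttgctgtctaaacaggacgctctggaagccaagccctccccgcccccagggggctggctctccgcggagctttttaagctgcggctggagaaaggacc
Rcan1 longer transcript: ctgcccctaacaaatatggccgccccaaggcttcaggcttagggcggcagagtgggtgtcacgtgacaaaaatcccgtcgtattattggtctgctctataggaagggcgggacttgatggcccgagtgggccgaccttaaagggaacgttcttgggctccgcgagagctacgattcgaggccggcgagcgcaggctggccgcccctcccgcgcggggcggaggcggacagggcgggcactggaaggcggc
The window of the shorter transcript held 3 matches to GGAAA, beginning 227, 193 and 163 bases before the start, and 1 match to TGANTCA, beginning 110 bases before it, none of which overlapped another. The window of the longer transcript held neither motif. Among 32851 mouse windows of the same length, 55.6% held GGAAA at least once, 6.39% held it at least 3 times, 6.75% held TGANTCA and 0.457% (150 windows) held at least 3 of the former with 1 or more of the latter. Of the 10 genes, 8 had a window in the table, 10 windows in all. Only 3 of these 8 genes had a GGAAA match, namely Rcan1 and Ppp3cb with 3 each and Atp2b1 with 1, and Rcan1 alone had a TGANTCA match. A match of letters is a description and shows no binding.

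None of the 10 genes passed limma's test at an adjusted p under 0.05, the threshold that 0.441% of all tested genes passed (62 genes, 21 higher and 41 lower in Dcir-/- OCs). The number of genes passing was 8, 2 and 6 without Dcir-/- library 21, 22 or 83, and 126, 9 and 79 without WT library 3, 82 or 94, with 0 of the 10 each time. At an unadjusted p under 0.05 from limma there were 2 of the 10, Rcan1, higher, and Atp2a3, lower in Dcir-/- OCs, against 12.5% of all tested genes. The same 2 genes, 20.0% of the 10, had CPM ranges that did not overlap between genotypes, which held for 19.8% of all genes, so the share among the 10 was that of the background. The 10 log2 fold changes (Dcir-/- over WT OCs, on log2(CPM + 1)) ran from -0.48 to 0.30 with a median of -0.01, against 0.01 over all genes. Means were higher in Dcir-/- OCs for 4 genes and lower for 6. For 8 of the 10 the 95% interval of the difference lay within 1.5-fold in both directions, as it did for 80.5% of all genes; the exceptions were Atp2a3 and Atp2b1.

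**Figure D1:**
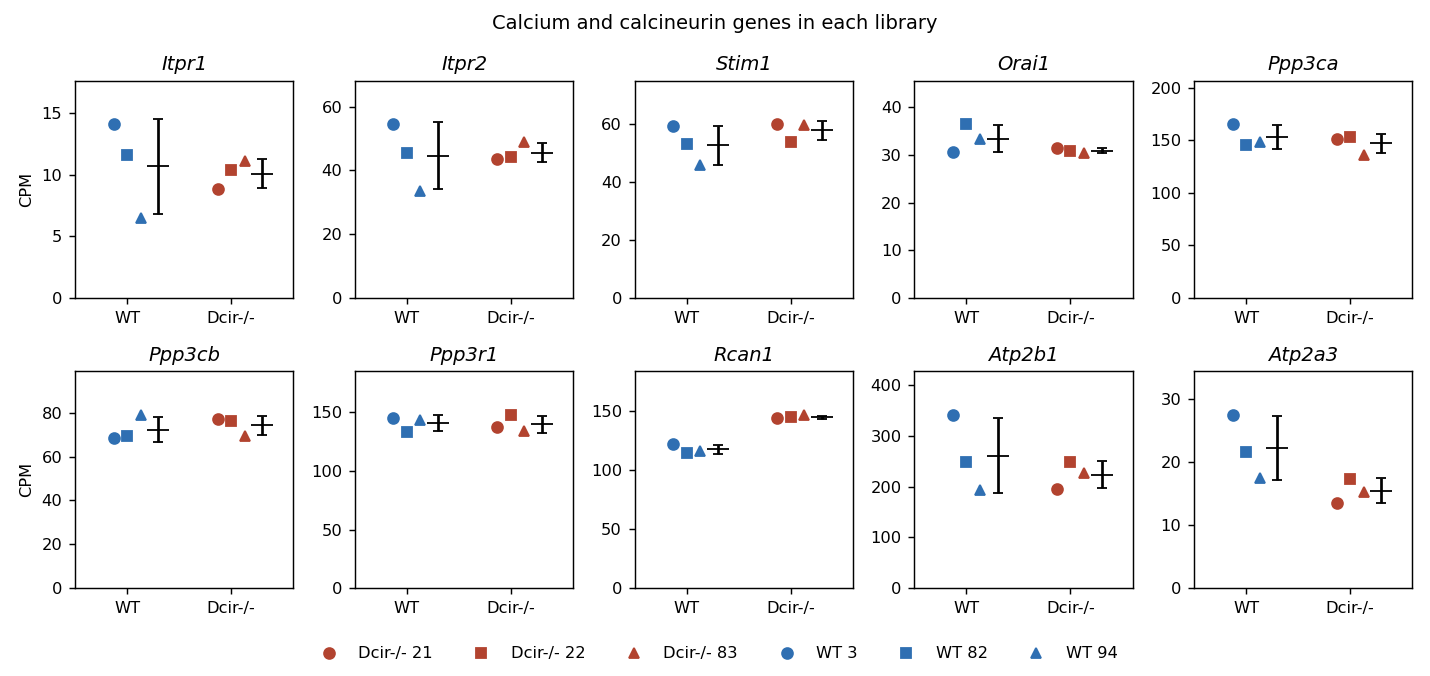
CPM of each of the 10 genes by genotype, 1 point per library, with the mean ± SD (n = 3) as a bar beside the points; each axis starts at 0 and has its own scale. Rcan1 sits at 144 to 147 CPM in Dcir-/- OCs and 115 to 122 CPM in WT OCs, Atp2a3 is separated by 17.4 against 17.5 CPM only, and the other 8 genes overlap.

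The IP3 receptors release calcium from the reticulum. Itpr1 encodes the type 1 receptor and lies on chromosome 6 from 108213096 to 108551109 (GRCm38), 14.56 Mb from Clec4a2. It was at 8.82, 10.4 and 11.1 CPM in Dcir-/- libraries 21, 22 and 83, against 14.1, 11.6 and 6.51 CPM for WT libraries 3, 82 and 94. The WT libraries held both the highest and the lowest value, with the Dcir-/- libraries between them. The means were 10.1 ± 1.19 and 10.7 ± 3.88 CPM (SD, n = 3 each), and the log2 fold change was -0.02 (SE 0.24, 95% interval -0.57 to 0.52; adjusted p = 0.981 from limma). Without WT library 3 the log2 fold change was 0.19 and without WT library 94 it was -0.32, so its sign depended on which libraries entered. Its exons share 181 and 108 bases with the opposite-strand genes Gm44101 and Gm44040, and the strand setting of the counting is not given in the sources used here.

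Itpr2 encodes the type 2 receptor, and also lies on chromosome 6, from 146108299 to 146502223, 22.96 Mb from Clec4a2. It was at 43.4, 44.2 and 49.0 CPM in Dcir-/- libraries 21, 22 and 83, against 54.4, 45.4 and 33.5 CPM for WT libraries 3, 82 and 94. As for Itpr1, WT library 3 was highest and WT library 94 lowest of the 6. The log2 fold change was 0.06 (SE 0.16, 95% interval -0.31 to 0.42; adjusted p = 0.924 from limma), and it was 0.21 without WT library 3 and -0.13 without WT library 94. Within libraries the log2 ratio of Itpr1 to Itpr2, taken on CPM + 1 as for the other ratios, was -2.07 ± 0.10 in Dcir-/- OCs and -1.99 ± 0.19 in WT OCs (SD, n = 3 each). These ratios overlapped between genotypes, and their difference of -0.08 was not larger than the spread (exact two-sided permutation p = 0.60, the smallest possible being 0.1; adjusted p = 0.60 over 4 ratios).

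Neither of these was the main IP3 receptor transcript. Per kb of exon, Itpr3, the type 3 receptor gene and the gene of smallest p in the list of IP3 genes, made up 88.8 ± 1.03% of the 3 receptor transcripts in Dcir-/- OCs and 85.1 ± 3.38% in WT OCs (SD, n = 3 each). Itpr2 made up 9.49 ± 0.762% and 12.5 ± 2.62%, and Itpr1 1.71 ± 0.263% and 2.41 ± 0.788%. Itpr3 was at 275, 233 and 274 CPM in Dcir-/- libraries 21, 22 and 83, against 174, 212 and 168 CPM for WT libraries 3, 82 and 94. All 3 Dcir-/- libraries were above all WT libraries, with a log2 fold change of 0.50 (SE 0.11, 95% interval 0.25 to 0.75; adjusted p = 0.129 from limma), which did not pass over all genes. The sum of the 3 receptors was 29.4 to 34.3 CPM per kb in Dcir-/- OCs and 21.2 to 27.2 CPM per kb in WT OCs, of which Itpr3 made 28.9 ± 2.63 and 20.5 ± 2.63 CPM per kb (SD, n = 3 each). Family shares were worked out after the values were seen and were not tested.

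Stim1 encodes the calcium sensor of the reticulum and lies on chromosome 7 from 102267806 to 102437319. It was at 60.0, 53.9 and 59.7 CPM in Dcir-/- libraries 21, 22 and 83, against 59.4, 53.1 and 46.0 CPM for WT libraries 3, 82 and 94. The ranges overlapped, WT library 94 standing lowest. The log2 fold change was 0.14 (SE 0.11, 95% interval -0.11 to 0.38; adjusted p = 0.661 from limma), and it was 0.22 without WT library 3 (adjusted p = 0.322 from limma) and 0.04 without WT library 94.

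Orai1, the pore of the store-operated channel, lies on chromosome 5 from 123015074 to 123030456. It was at 31.4, 30.9 and 30.4 CPM in Dcir-/- libraries 21, 22 and 83, against 30.6, 36.4 and 33.4 CPM for WT libraries 3, 82 and 94. The Dcir-/- values were tight (SD 0.520 CPM) and the lowest WT library fell among them; 7 bases of its exons lie opposite those of Gm2479. The log2 fold change was -0.11 (SE 0.09, 95% interval -0.32 to 0.10; adjusted p = 0.693 from limma). The log2 ratio of Stim1 to Orai1 was 0.88 ± 0.09 in Dcir-/- OCs and 0.64 ± 0.26 in WT OCs (SD, n = 3 each). The ratios overlapped between genotypes, with a difference of 0.24 (exact two-sided permutation p = 0.30; adjusted p = 0.60 over 4 ratios). Per kb, Stim1 was 49.5 ± 3.60% of the STIM transcripts in Dcir-/- OCs and 45.0 ± 2.80% in WT OCs, the rest being Stim2. In CPM, Stim1 was the higher, with means of 57.9 and 52.8 against 29.3 and 31.8 for Stim2 in Dcir-/- and WT OCs. The similar levels per kb thus rest on the annotated exon lengths of 10.4 kb for Stim1 and 5.13 kb for Stim2. Orai1 was the least of the 3 ORAI transcripts per kb, with 19.5 ± 0.511% in Dcir-/- OCs and 21.4 ± 1.13% in WT OCs. Orai2 held 47.7 ± 1.03% and 42.0 ± 2.84%, and Orai3 32.8 ± 0.733% and 36.6 ± 2.48% (SD, n = 3 each).

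**Figure D2:**
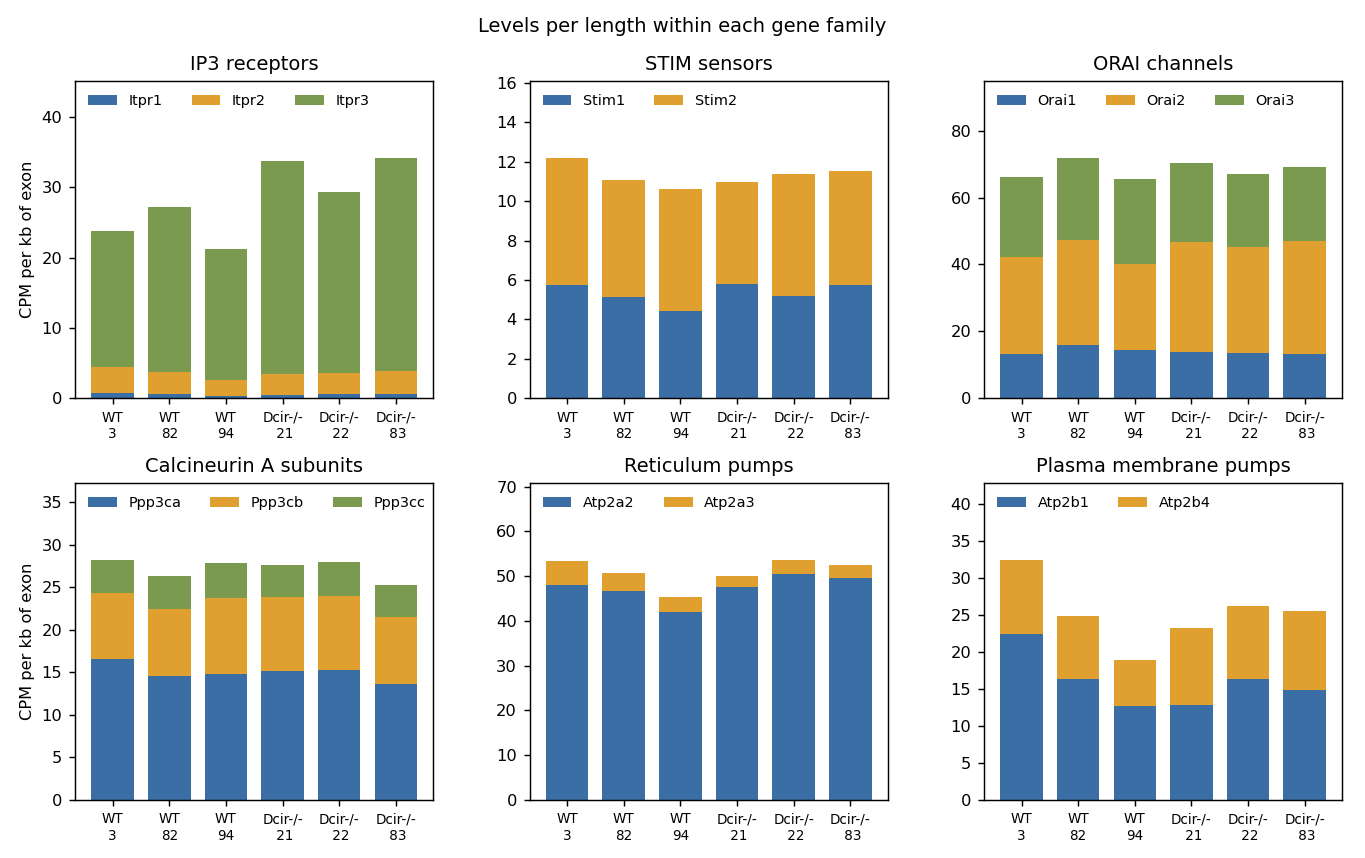
CPM per kb of exon in each library for genes of 6 families, stacked, with the 3 WT libraries at the left of each panel and without the pump genes Atp2a1 and Atp2b3. Itpr3 fills 81.3% to 89.9% of the IP3 receptor bars and Atp2a2 90.2% to 94.8% of the reticulum pump bars, whereas Ppp3ca and Ppp3cb make up most of the calcineurin A bars in all 6 libraries.

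Calcineurin is a dimer of a catalytic A subunit and a regulatory B subunit that binds calcium. The log2 fold changes of its 3 genes here lay between -0.06 and 0.04. Ppp3ca, which encodes the alpha form of the catalytic subunit, lies on chromosome 3 from 136670124 to 136937727 and was at 151, 153 and 136 CPM in Dcir-/- libraries 21, 22 and 83, against 165, 145 and 148 CPM for WT libraries 3, 82 and 94. Ppp3cb, the beta form, lies on chromosome 14 from 20499364 to 20546573 and was at 77.2, 76.1 and 69.3 CPM in Dcir-/- libraries, against 68.3, 69.5 and 79.0 CPM with DCIR, in the same order. The genotypes overlapped for both, with log2 fold changes of -0.06 (SE 0.08, 95% interval -0.25 to 0.14; adjusted p = 0.844 from limma) for Ppp3ca and 0.04 (SE 0.09, 95% interval -0.16 to 0.24; adjusted p = 0.901 from limma) for Ppp3cb. The log2 ratio of Ppp3ca to Ppp3cb was 0.97 ± 0.02 in Dcir-/- OCs and 1.07 ± 0.19 in WT OCs (SD, n = 3 each; exact two-sided permutation p = 0.60; adjusted p = 0.60 over 4 ratios). Per kb, Ppp3ca made up 54.5 ± 0.381% of the catalytic transcripts in Dcir-/- OCs and 55.6 ± 2.86% in WT OCs, and Ppp3cb 31.2 ± 0.441% and 29.9 ± 2.34%, with Ppp3cc, the gamma form, holding the rest.

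Ppp3r1, which encodes the regulatory subunit, lies on chromosome 11 from 17159263 to 17200375. It was at 138, 148 and 134 CPM in Dcir-/- libraries 21, 22 and 83, against 145, 133 and 144 CPM for WT libraries 3, 82 and 94. The log2 fold change was 0.00 (SE 0.08, 95% interval -0.18 to 0.17; adjusted p = 0.994 from limma), the smallest of the 10. Its exons share 462 bases with those of Wdr92 on the same strand, and reads there cannot be assigned to one gene by position alone.

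Rcan1 encodes regulator of calcineurin 1, which binds calcineurin and inhibits it, and whose shorter transcript is itself a target of NFAT. The gene lies on chromosome 16 from 92391953 to 92470867. It was at 144, 145 and 147 CPM in Dcir-/- libraries 21, 22 and 83, against 122, 115 and 116 CPM for WT libraries 3, 82 and 94. The groups did not overlap and were tight, at 145 ± 1.40 CPM without and 118 ± 3.82 CPM with DCIR (SD, n = 3 each), a mean 23.2% higher in Dcir-/- OCs. The log2 fold change was 0.30 (SE 0.07, 95% interval 0.15 to 0.45; adjusted p = 0.134 from limma), and the difference did not pass over all genes. The OC markers were also higher in the mean in Dcir-/- OCs, most of all in library 21, and their part in this value and in that of Itpr3 was not tested. Over 15 other settings, each library left out in turn among them, the log2 fold change of Rcan1 was 0.28 to 0.33 with an adjusted p of 0.0782 to 0.537 from limma. The table has 1 row for the gene, so the value joins the transcripts of both starts shown above. Of its relatives in the list of calmodulin and calcineurin genes, Rcan2 was at 1.36 ± 0.435 and 1.45 ± 0.428 CPM and Rcan3 at 49.9 ± 5.52 and 47.1 ± 2.67 CPM in Dcir-/- and WT OCs (SD, n = 3 each), both overlapping between genotypes.

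The genes whose log2(CPM + 1) followed that of Rcan1 most closely over the 6 libraries were Ascc2 (Pearson r = 0.994), Ide (r = 0.991) and Usp7 (r = 0.985), and 48 genes in all had an r above 0.95. For Atp2a3 they were Gm15655 (r = 0.997), Selenon (r = 0.996) and Zdhhc14 (r = 0.994) among 348 such genes, and for Stim1 they were Mypopos (r = 0.986), Gm13963 (r = 0.985) and Abr (r = 0.983) among 91. The 6 points of each r hold both genotypes and share their libraries and scaling, and these values are descriptions.

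**Figure D3:**
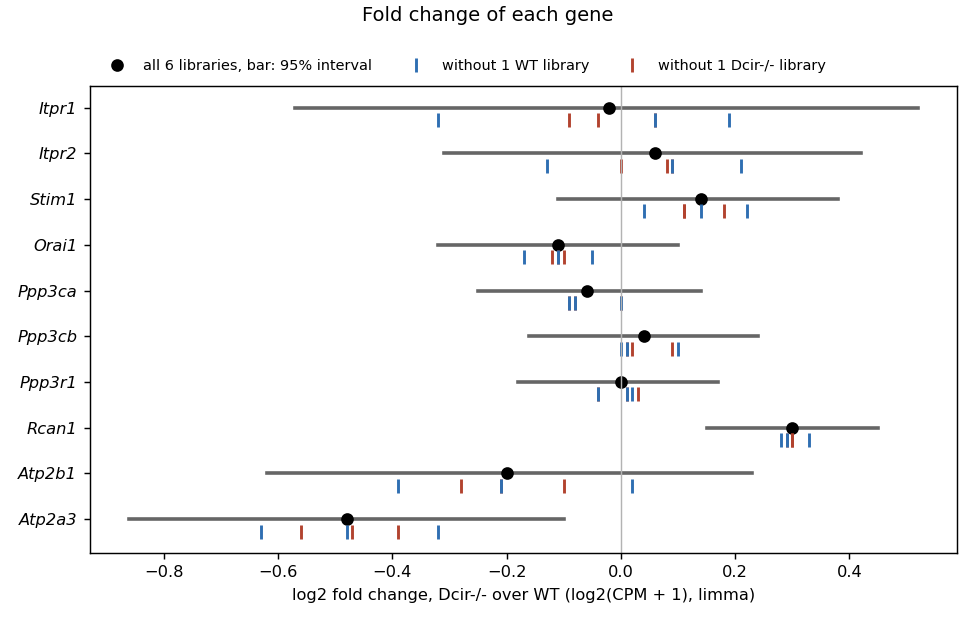
Log2 fold change of each gene, Dcir-/- over WT OCs, on log2(CPM + 1) from limma; black points and bars give the value and its 95% interval over all 6 libraries, and ticks the value with 1 library left out. The ticks of Rcan1 stay between 0.28 and 0.33, and those of Atp2a3 lie between -0.63 and -0.32. Those of Itpr1, Itpr2, Ppp3r1 and Atp2b1 fall on both sides of 0, and those of Ppp3ca and Ppp3cb reach 0.00.

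Pumps lower the calcium of the cytosol. Atp2a3 encodes SERCA3, a pump that returns calcium to the reticulum, and lies on chromosome 11 from 72961169 to 72993044. It was at 13.6, 17.4 and 15.3 CPM in Dcir-/- libraries 21, 22 and 83, against 27.5, 21.6 and 17.5 CPM for WT libraries 3, 82 and 94. The WT libraries were all above the Dcir-/- libraries, but WT library 94 and Dcir-/- library 22 nearly met. The means were 15.5 ± 1.91 and 22.2 ± 5.05 CPM (SD, n = 3 each), 30.2% lower in Dcir-/- OCs, and the log2 fold change was -0.48 (SE 0.17, 95% interval -0.86 to -0.10; adjusted p = 0.293 from limma), which did not pass over all genes. Leaving out 1 library moved it to between -0.63 (without WT library 94) and -0.32 (without WT library 3). The mean of the macrophage marker list, relative to the 6 libraries, was also highest in WT library 3 (0.88) and lowest in Dcir-/- library 21 (-0.56), as Atp2a3 was. The mean of the monocyte list did the same (0.65 and -0.62). Not each macrophage marker did: Cd68 was highest in Dcir-/- library 21 (1357 CPM) and Csf1r lowest in WT library 94 (2020 CPM). The part of these cells in the value of Atp2a3 was not tested. Per kb, Atp2a3 was the minor one beside Atp2a2, which encodes the widely expressed SERCA2. It held 5.61 ± 0.503% of the transcripts of these 2 genes in Dcir-/- OCs and 8.37 ± 1.27% in WT OCs. Atp2a1, at means of 0.311 and 0.205 CPM, was left out of this share.

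Atp2b1 encodes PMCA1, a pump that expels calcium through the plasma membrane, and lies on chromosome 10 from 98914406 to 99026143. It was at 195, 248 and 226 CPM in Dcir-/- libraries 21, 22 and 83, against 341, 248 and 194 CPM for WT libraries 3, 82 and 94. The WT range covered the whole Dcir-/- range, and WT library 3 stood above the other 5. The log2 fold change was -0.20 (SE 0.19, 95% interval -0.62 to 0.23; adjusted p = 0.727 from limma), and without WT library 3 it was 0.02. The log2 ratio of Atp2a3 to Atp2b1 was -3.74, -3.75 and -3.79 in Dcir-/- libraries 21, 22 and 83, against -3.58, -3.46 and -3.40 for WT libraries 3, 82 and 94. These ratios did not overlap, so Atp2a3 was lower relative to Atp2b1 in every Dcir-/- library, by 0.28 in the mean, and the exact two-sided permutation p of 0.10 was the smallest that 3 against 3 libraries allow (adjusted p = 0.40 over 4 ratios). Of the transcripts of Atp2b1 and Atp2b4, which encodes PMCA4, Atp2b1 held 58.4 ± 3.61% per kb in Dcir-/- OCs and 67.3 ± 1.69% in WT OCs (SD, n = 3 each). Atp2b3, at means of 0.617 and 0.465 CPM, was left out of this share.

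Per length, the 10 genes spanned a wide range. Averaged over the 6 libraries, Ppp3r1 stood at 43.5 and Rcan1 at 42.6 CPM per kb, followed by Atp2b1 at 15.9, Ppp3ca just below it, Orai1 at 14.0, Ppp3cb at 8.31, Stim1 at 5.34, Atp2a3 at 3.57, Itpr2 at 3.04 and Itpr1 at 0.570 CPM per kb. Ppp3r1 was thus at the 89.8 and Itpr1 at the 6.59 percentile of the levels per kb of all tested genes. Of the 9 pairs of neighbours in this order, 4 had ranges over the 6 libraries that did not overlap: Rcan1 above Atp2b1, Orai1 above Ppp3cb, Ppp3cb above Stim1, and Itpr2 above Itpr1 by 5.34-fold. The ranges of the other 5 pairs overlapped, although Stim1 was above Atp2a3 in each of the 6 libraries. Transcripts of the regulatory calcineurin subunit and of the calcineurin inhibitor were thus close in level per kb, Ppp3r1 being the higher in all 3 WT libraries and Rcan1 in all 3 Dcir-/- libraries, while Nfatc1, the target of the pathway, was at 105 CPM per kb. Nfatc1 itself was at 863, 782 and 837 CPM in Dcir-/- libraries 21, 22 and 83, against 735, 784 and 716 CPM for WT libraries 3, 82 and 94. WT library 82 was above the lowest Dcir-/- library, and the log2 fold change was 0.15 (SE 0.08, 95% interval -0.03 to 0.33; adjusted p = 0.505 from limma).

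The spread between libraries was mostly that of the WT group. The SD in CPM was larger in WT than in Dcir-/- OCs for 9 of the 10 genes, as it was for 73.3% of all tested genes, and the median coefficient of variation over all genes was 12.2% in WT OCs and 6.93% in Dcir-/- OCs. The coefficient in WT OCs was 36.1% for Itpr1, 28.5% for Atp2b1, 23.6% for Itpr2 and 22.8% for Atp2a3, whereas that of Rcan1 was under the median. WT library 3 held the highest of the 6 values in 5 of the 10 genes, against 24.8% of all genes, and WT library 94 the lowest in 4, against 25.4%. These were Itpr1, Itpr2, Ppp3ca, Atp2b1 and Atp2a3 for the former, and Itpr1, Itpr2, Stim1 and Atp2b1 for the latter. On the log2 scale, relative to the mean of the 6 libraries, WT library 3 was at 0.44 for Itpr1, 0.52 for Atp2b1 and 0.56 for Atp2a3. In the same library the 8 macrophage markers were at 0.88, the 5 monocyte markers at 0.65 and the 4 tested platelet and megakaryocyte markers at 1.02 in the mean, and the 10 OC markers at -0.14. WT library 94 was at -0.57 for Itpr1 and -0.40 for Itpr2, with the macrophage markers at -0.09. The part of other cells in these values was not tested.

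**Figure D4:**
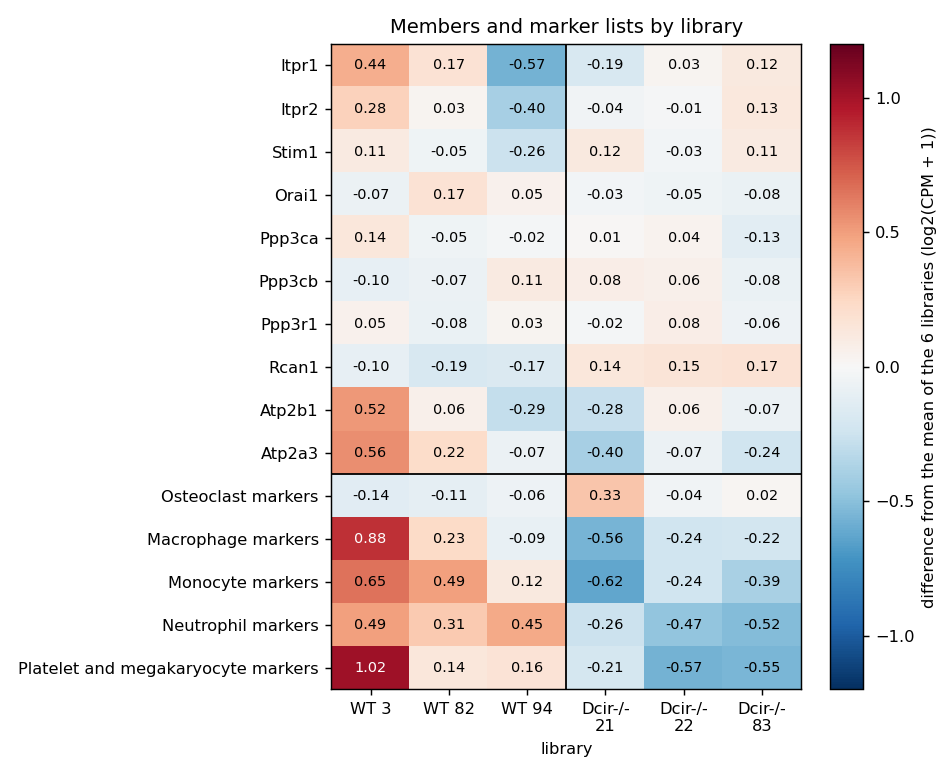
Difference of each library from the mean of the 6 libraries on log2(CPM + 1), for the 10 genes and, under the line, for the mean of each marker list, with the 3 WT libraries at the left. WT library 3 is high for Itpr1, Atp2b1 and Atp2a3 (0.44 to 0.56) and for macrophage markers (0.88), while Rcan1 is above 0 in all 3 Dcir-/- libraries (0.14 to 0.17) and below 0 in all 3 WT libraries (-0.19 to -0.10).

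The other genes of the pathway were read from 9 lists of 83 genes, of which 78 were in the table and 72 were tested. None passed over all genes. At an unadjusted p under 0.05 from limma 4 were higher and 8 lower in Dcir-/- OCs, 16.7% of the 72 against 12.5% of all genes, and the groups did not overlap for 13 higher and 9 lower genes, 30.6% against 19.8%. The median log2 fold change of the 72 was 0.00, against 0.01 over all genes.

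Upstream of IP3, the ITAM list held 8 tested genes, 2 of them lower in Dcir-/- OCs at an unadjusted p under 0.05, against 12.5% of all tested genes. The groups did not overlap for 2 lower genes and for 1 higher gene, the adaptor gene Lcp2 (log2 fold change 0.14, adjusted p = 0.519 from limma), against 19.8% of all tested genes. Blnk, an adaptor that brings phospholipase C gamma to the kinases, was at 83.0, 106 and 105 CPM in Dcir-/- libraries 21, 22 and 83, against 128, 125 and 139 CPM for WT libraries 3, 82 and 94, below the WT range in every Dcir-/- library (log2 fold change -0.42, SE 0.11; adjusted p = 0.172 from limma). The ITAM adaptors Fcer1g and Tyrobp, which encode FcR gamma and DAP12, had log2 fold changes of -0.22 and -0.15 (adjusted p = 0.351 and adjusted p = 0.509 from limma). In the list of IP3 production and release, with 7 tested genes, Plcb2, a phospholipase C gene, had a log2 fold change of 0.26 (adjusted p = 0.447 from limma) and Bcap31, a reticulum membrane protein gene, one of -0.12 (adjusted p = 0.619 from limma) beside Itpr3. The phospholipase gene Plcg2 was at 144 ± 7.81 and 147 ± 16.5 CPM in Dcir-/- and WT OCs (SD, n = 3 each), overlapping between genotypes.

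Among 13 tested genes of store-operated entry and other calcium channels, the smallest p belonged to Trpv4, a cation channel of the plasma membrane. Trpv4 was at 6.75, 8.61 and 11.8 CPM in Dcir-/- libraries 21, 22 and 83, against 27.8, 18.4 and 16.2 CPM for WT libraries 3, 82 and 94. No Dcir-/- library reached the WT range, and the log2 fold change was -1.11 (SE 0.23, 95% interval -1.64 to -0.58; adjusted p = 0.115 from limma). Cracr2a, which encodes a cytosolic regulator of ORAI1, was also below the WT range in every Dcir-/- library, at 4.19 ± 0.116 against 7.35 ± 1.62 CPM (SD, n = 3 each; log2 fold change -0.67, adjusted p = 0.150 from limma). Trpm2, a channel gated by ADP-ribose, had a log2 fold change of -0.71 with overlapping groups (adjusted p = 0.279 from limma). In this list WT library 3 was the highest for all 3 of these genes, as it was for the mean of the macrophage markers, and the part of other cells was not tested.

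Between calcium and NFAT, the 10 tested genes of the calmodulin and calcineurin list had 0 at an unadjusted p under 0.05, against 12.5% of all tested genes. The calmodulin gene Calm2 had the smallest p, with a log2 fold change of -0.22 (adjusted p = 0.419 from limma), followed by Chp1 at 0.08, a calcineurin B homologue, and Cabin1 at 0.10, a calcineurin inhibitor. Among 6 calmodulin kinase genes, Camk2d, the delta form of CaMKII, was at 81.4, 80.4 and 78.3 CPM in Dcir-/- libraries 21, 22 and 83, against 65.3, 66.0 and 67.4 CPM for WT libraries 3, 82 and 94. Its groups were tight and did not overlap, as for Rcan1, with a log2 fold change of 0.27 (SE 0.07, 95% interval 0.11 to 0.43; adjusted p = 0.180 from limma). Camk2g, the gamma form, and Camk1d had log2 fold changes of 0.17 and -0.49, with adjusted p = 0.459 and adjusted p = 0.540 from limma.

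Among NFAT factors and their kinases, 9 were tested and the mean was higher without DCIR for 8 of them, against 53.9% of all tested genes. The exception was Nfatc2. Log2 fold changes of 5 of the 8 were between 0.03 and 0.07. Nfatc2, a calcineurin-dependent NFAT that contributes to the first induction of Nfatc1, was at 10.3, 18.3 and 18.2 CPM in Dcir-/- libraries 21, 22 and 83, against 52.7, 31.8 and 19.8 CPM for WT libraries 3, 82 and 94. WT library 94 stood just above the Dcir-/- libraries and WT library 3 far above them, with a log2 fold change of -1.04 (SE 0.33, 95% interval -1.81 to -0.28; adjusted p = 0.260 from limma). Nfatc2 was highest in WT library 3 and lowest in Dcir-/- library 21, as was the mean of the macrophage markers. The part of other cells in its value was not tested. Nfat5, the family member that calcineurin does not regulate, was at 121 ± 3.81 CPM without and 86.7 ± 23.1 CPM with DCIR (SD, n = 3 each; log2 fold change 0.51, adjusted p = 0.284 from limma), with WT library 94 lowest at 61.6 CPM.

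In the 7 tested genes of pumps and exchangers, Slc8b1, the mitochondrial sodium-calcium exchanger, stood at -0.39 on the log2 fold change scale (adjusted p = 0.340 from limma) and was below the WT range in every Dcir-/- library. Slc8b1 too was highest in WT library 3 and lowest in Dcir-/- library 21, and the part of other cells was not tested. For Atp2b4 the log2 fold change was 0.35 (adjusted p = 0.401 from limma) and for Letm1, a mitochondrial inner membrane protein gene, it was 0.19 (adjusted p = 0.440 from limma). In the list of mitochondrial uptake, the uniporter pore gene Mcu and its paralog Mcub had log2 fold changes of 0.12 and -0.24, with adjusted p = 0.638 and adjusted p = 0.637 from limma. The 6 tested genes of OC calcium modulators had 0 at an unadjusted p under 0.05, against 12.5% of all tested genes. Log2 fold changes were -0.11 for Homer3, 0.09 for Tmem64 and -0.10 for Rgs12.

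**Figure D5:**
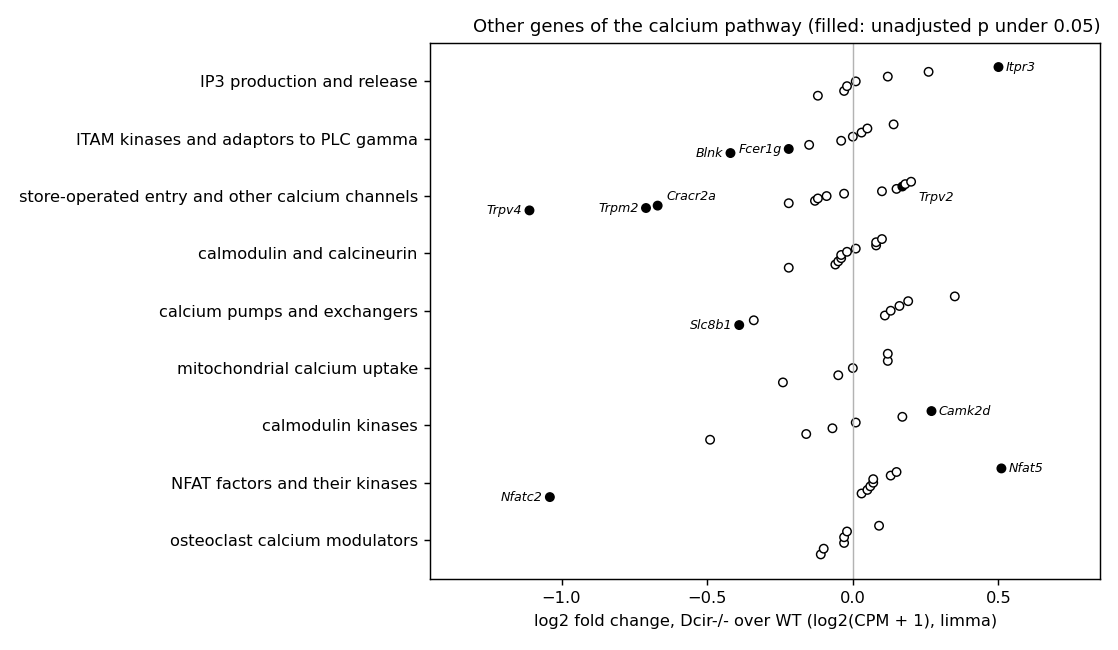
Log2 fold change (Dcir-/- over WT OCs, on log2(CPM + 1) from limma) of 71 tested pathway genes other than the 10, 1 point per gene by list, filled and named where the unadjusted p is under 0.05. The 11 filled points are 4 higher and 7 lower, from -1.11 (Trpv4) to 0.51 (Nfat5), and 0 passed over all genes.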

How the data were processed

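All 6 samples of the series were used, grouped by the genotype in their labels. By their methods, the authors used Trim Galore 0.6.6 for trimming and HISAT2 2.2.0 for alignment to mm10, and then took read counts over the exons of each gene. Libraries were stranded and poly(A)-selected; what annotation and which strand setting served the counting is not stated there. The deposited values per library are a signal of adjusted counts, mostly not whole, brought by the authors to nearly equal library totals; this adjustment is inferred from the values. The authors' log2 fold change and FDR columns were not used.

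CPM was the adjusted count over the mean total of 33577739.2, so 1 CPM is 33.6 adjusted counts. Genes of at least 1 CPM in 3 libraries (14047) were fitted with limma 3.58.1 (trend, genotype only, R 4.3.3) on log2(CPM + 1), a scale that understates changes of low genes. Adjusted p is Benjamini-Hochberg over all 14047, with 0.05 as threshold. The 4 within-library ratios were differences of log2(CPM + 1) and had exact permutation tests. The fit was tested on simulated data first. Levels per kb divide CPM by the merged exon length of GENCODE M21 (GRCm38), which need not be the length of the transcripts present. Promoter windows are from RefSeq (GRCm38.p6).

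The members and the lists were chosen with earlier results of these data known. Named genes are the 10, Clec4a2, Nfatc1, the 3 of smallest p in each pathway list, and the 3 most alike genes of the 3 members of smallest p. The family relatives (Stim2, Orai2, Orai3, Ppp3cc, Atp2a1, Atp2a2, Atp2b3), Rcan2, Rcan3, Plcg2, Lcp2 and the cell markers were named after their values were seen. A few of the listed genes are not reported here. Alternatives changed the filter, pseudocount, scaling, limma's fit and threshold, and left out each library.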

Additional observations from a re-analysis of the deposited data

How the results depend on the processing

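None of the 10 genes passed an adjusted p under 0.05 in any of the settings tried, nor one under 0.1 in the main fit of all 6 libraries. With 1 library left out, Rcan1 fell under 0.1 without WT library 3 (adjusted p = 0.0782 from limma) and without WT library 94 (adjusted p = 0.0956 from limma). Atp2a3 did so without WT library 94 (adjusted p = 0.0956 from limma). The log2 fold changes of Rcan1, Atp2a3, Stim1 and Orai1 kept their sign in all 15 alternatives, and 138 of the 150 values of the 10 genes kept their sign and side of the threshold. The other 12 changed sign, none of them past the threshold. With 1 library left out the log2 fold change ran from -0.32 to 0.19 for Itpr1, from -0.13 to 0.21 for Itpr2, from -0.09 to 0.00 for Ppp3ca, from 0.00 to 0.10 for Ppp3cb, from -0.04 to 0.03 for Ppp3r1 and from -0.39 to 0.02 for Atp2b1. Ppp3r1 was at 0.00 with upper quartile scaling too, with the opposite sign. Over all genes, 62 passed, and 33 did with at least 5 CPM in 3 libraries, 39 with array weights, 33 without the trend and 112 at an adjusted p under 0.1. With 1 library left out the count ran from 2 (without Dcir-/- library 22) to 126 (without WT library 3), and the cause was not tested. No paired analysis was possible because the groups share no library number. Scaling moved the median of all genes to between 0.006 and 0.022, from 0.015. With 3 libraries a group, an interval that spans 0 leaves differences within it undetected.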
